A study of Mus musculus with 8 samples.

Results

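Polycomb repressive complexes are the subject here, as 9 genes whose rows were taken by symbol from the deposited table of expression values. These were Ezh1, Ezh2, Eed, Suz12 and Rbbp7 of Polycomb repressive complex 2 (PRC2), and Rnf2, Bmi1, Cbx2 and Cbx8 of Polycomb repressive complex 1 (PRC1). All 9 had a row among the 11783 genes listed. RNA was sequenced from granulosa cells, the somatic cells that surround the oocyte, which were dissociated from the ovaries of C57BL/6 pups on postnatal day 4 (PND4, 4 libraries) or postnatal day 1 (PND1, 4 libraries). The labels name no transgene or treatment, and do not say how the cells were purified or whether each library had its own animals, so the p-values rest on a spread that may be technical. The series is framed around the activation of primordial follicles, which form and begin to grow in this period.

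PRC2 writes methyl marks on lysine residues of histone H3, and PRC1 attaches ubiquitin to histone H2A and compacts chromatin. Together they keep developmental genes such as the HOX clusters silent in cells that do not use them. In the gonad, XY mice that lack Cbx2 develop ovaries or underdeveloped gonads instead of testes, and Polycomb factors hold back genes of the opposite sex in supporting cells.

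Promoter sequences of 4 members are shown because they hold an E2F or E-box motif, and because Ezh2 and Bmi1 had the highest log2 differences of the members. RefSeq promoters (GRCm38.p6), running from 250 bases before to 50 bases after each start, were matched for 8 of the 9 members, all but Cbx2. Capitals mark TTTGGCGC or TTTCCCGC, which are 2 of the 4 spellings searched as the E2F motif, with TTTCGCGC and TTTGCCGC as the others, or CACGTG, the E-box. E2F factors drive genes of the cell cycle, and E-boxes are bound by MYC and related factors. The regions are chr6:47594981-47595280 (Ezh2, minus strand), chr11:79992856-79993155 (Suz12, plus strand), chr2:18676768-18677067 (Bmi1, plus strand) and chr11:119040864-119041163 (Cbx8, minus strand).
Ezh2: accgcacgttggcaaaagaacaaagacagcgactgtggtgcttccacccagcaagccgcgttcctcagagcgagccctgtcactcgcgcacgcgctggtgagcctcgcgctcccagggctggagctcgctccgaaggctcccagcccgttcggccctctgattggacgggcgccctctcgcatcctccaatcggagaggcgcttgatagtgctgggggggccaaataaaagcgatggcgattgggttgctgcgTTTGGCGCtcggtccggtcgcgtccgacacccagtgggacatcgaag
Suz12: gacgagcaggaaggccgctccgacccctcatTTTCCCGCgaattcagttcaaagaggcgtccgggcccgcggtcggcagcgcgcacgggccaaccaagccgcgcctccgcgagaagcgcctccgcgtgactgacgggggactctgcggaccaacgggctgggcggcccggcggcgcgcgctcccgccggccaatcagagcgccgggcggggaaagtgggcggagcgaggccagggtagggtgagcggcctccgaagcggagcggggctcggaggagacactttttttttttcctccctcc
Bmi1: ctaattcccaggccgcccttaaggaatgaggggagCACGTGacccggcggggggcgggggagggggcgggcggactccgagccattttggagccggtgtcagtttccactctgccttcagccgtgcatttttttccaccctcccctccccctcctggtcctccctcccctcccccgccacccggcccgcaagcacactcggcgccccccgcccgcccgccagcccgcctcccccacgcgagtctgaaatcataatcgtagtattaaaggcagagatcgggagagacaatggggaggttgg
Cbx8: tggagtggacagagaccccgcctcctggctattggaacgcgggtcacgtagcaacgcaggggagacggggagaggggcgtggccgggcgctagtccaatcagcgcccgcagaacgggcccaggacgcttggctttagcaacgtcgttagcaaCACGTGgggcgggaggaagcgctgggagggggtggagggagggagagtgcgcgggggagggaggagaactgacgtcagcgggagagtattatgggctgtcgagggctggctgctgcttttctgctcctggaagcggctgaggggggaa
On both strands, an E2F spelling was found in 2 of the 8 promoters, against 2.26% of all 32851 promoters in the RefSeq table. An E-box was found in 2 of the 8, against 7.15% of all. The CCAAT box (CCAAT) was found in 5 of the 8, against 37.4% of all. No E2F, E-box and CCAAT matches overlap each other in these windows. GC content of the 8 promoters ran from 54.7% (Eed) to 75.7% (Rbbp7), beside a median of 52.7% over all promoters. Their ratio of observed to expected CpG ran from 0.708 (Bmi1) to 1.09 (Suz12), beside a median of 0.384, so all 8 lay above the median in both. A match is a description of the letters and does not show binding.

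The libraries listed between 222 and 1234 genes at exactly 0, with the highest count of each age in its replicate 1 (1097 at PND4 and 1234 at PND1). Of 16 granulosa markers, 14 had a row, with the ovarian transcription factor gene Foxl2 between 10.5 and 26.2 FPKM. FPKM are fragments scaled to transcript length and library size, so levels can be set side by side between genes. Oocyte markers, 16 of 18 with a row, summed to 51.5 to 325 FPKM at PND4 and to 23.4 to 134 FPKM at PND1. Of the 15 tested, 7 were higher and 8 lower at PND4, with a median log2 difference (PND4 minus PND1) of -0.71. The highest sum of each age was in its replicate 3, and Ddx4, a germ-cell RNA helicase gene, stood there at 2.96 FPKM at PND4 and 0.987 at PND1. The largest values of the PND1 replicate 3 sum were Dppa3 (36.0 FPKM) and Padi6 (20.8 FPKM). Not every marker was highest in that library, where Gdf9 was at 0.489 FPKM and Figla at 2.07, beside 3.19 and 7.99 in PND1 replicate 1. Surface epithelium markers, 7 of 7 with a row, summed to 212 to 477 FPKM at PND4 and to 122 to 380 FPKM at PND1. Among them Krt19 had a mean of 123 FPKM over the 8 libraries, beside 16.7 for Foxl2. Of 8 endothelial markers 1 had a row, and of 9 immune markers 5, with sums of 2.92 to 59.8 FPKM at PND4 and 9.27 to 29.8 FPKM at PND1. In bulk RNA, fewer cells of a type and less RNA per cell cannot be told apart.

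By level, the members spread from Rbbp7, with a mean of 125 FPKM over the 8 libraries, to Ezh1, listed at 0 in 5 of 8. Rbbp7 stood above every other member in 8 of 8 libraries. A middle group of Rnf2 (24.4 FPKM), Suz12 (23.5), Bmi1 (18.4) and Ezh2 (16.9) lay close together. Rnf2 was above Bmi1 in 8 of 8 libraries, above Ezh2 in 7 and above Suz12 in 4, while Suz12 was above Ezh2 in 6, Suz12 above Bmi1 in 5, and Bmi1 above Ezh2 in 4. Ezh2 was above Eed (9.32 FPKM) in 8 of 8, Eed above Cbx2 (7.45 FPKM) in 7, and Cbx2 above Cbx8 (2.04 FPKM) in 8. Among the 10756 genes that could be tested, Rbbp7 lay at the 96.3rd percentile of mean FPKM, Cbx2 at the 41.5th and Cbx8 at the 6.06th.

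**Figure D1:**
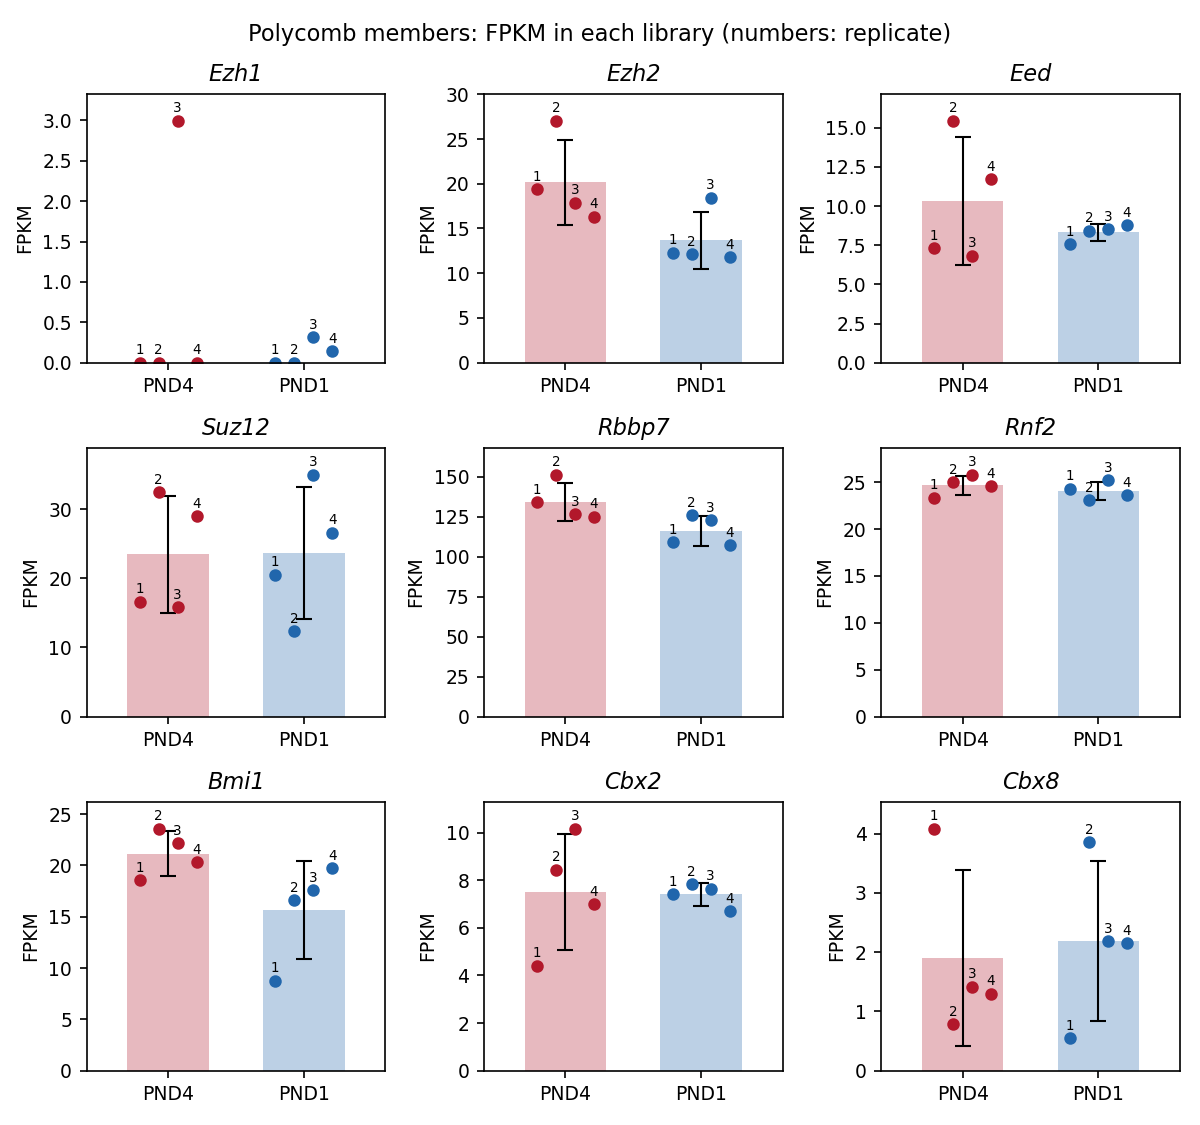
FPKM of the 9 Polycomb members (linear axis from 0) in each library, PND4 in red on the left and PND1 in blue on the right of each panel; bars are means and whiskers SD (n = 4), and numbers give the replicate. Ezh1 has points only, since it was listed at 0 in 5 libraries. The ages overlap in every panel, Rnf2 stays between 23.0 and 25.8 FPKM, and Suz12 runs from 12.4 to 34.9 FPKM.

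The comparison asks which of these transcripts differ in granulosa cells between PND4 and PND1. None of the 8 members tested passed (limma on log2(FPKM + 1), Benjamini-Hochberg over all genes, threshold 0.05), beside 1 of 10756 genes or 0.0093% over the whole table. The log2 differences were highest for Ezh2 (0.53), Bmi1 (0.46), Eed (0.22) and Rbbp7 (0.21), while Rnf2, Suz12 and Cbx2 had log2 differences close to 0. An unadjusted p under 0.05 was had by 1 of 8 members, Ezh2, beside 5.9% of all genes (4.06% higher and 1.84% lower at PND4). The log2 difference was above 0 for 6 of 8 members, beside 60.3% of all genes, and its median was 0.12 beside 0.078. All PND4 libraries stood clear of all PND1 libraries for 0 of 8 members, beside 4.24% of all genes (3.16% with PND4 above and 1.08% with PND4 below). Ezh1 did not reach the filter of 1 FPKM in 4 libraries and was not tested.

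Ezh2 encodes the main methyltransferase of PRC2 in dividing cells. Its locus (ENSMUSG00000029687) spans bases 47530139 to 47595341 of chromosome 6 in GRCm38, minus strand. It had 19.4, 27.0, 17.9 and 16.3 FPKM in PND4 libraries 1 to 4, against 12.3, 12.2, 18.4 and 11.8 FPKM in PND1 libraries 1 to 4. Of the PND1 libraries 3 lay below all PND4 values, and PND1 replicate 3 lay above PND4 replicates 3 and 4. The means were 20.2 ± 4.75 FPKM at PND4 and 13.7 ± 3.18 at PND1 (SD, n = 4 each), a log2 difference of 0.53 (SE 0.22, 95% interval 0.053 to 1.00). The limma p was 0.0324 unadjusted and 0.805 adjusted, so the difference did not pass. In the authors' deposited table the fold of PND1 over PND4 was 0.705 for Ezh2 (p = 0.0832, q = 0.742), the same direction. PND1 replicate 3 also had the highest oocyte marker sum of its age, 134 FPKM beside 23.4 to 83.7 in the other PND1 libraries, and its part in the Ezh2 value was not tested. Without that library the log2 difference was 0.67 (limma adjusted p = 0.837), while without PND4 replicate 2 it was 0.38 (limma adjusted p = 0.889). The unadjusted limma p of Ezh2 did not stay under 0.05 with median-of-ratios scaling (0.0556, adjusted 0.888) or upper-quartile scaling (0.0562, adjusted 0.881). Nor did it without PND4 replicate 2 (0.110), PND1 replicate 1 (0.0611), PND1 replicate 2 (0.0722) or PND1 replicate 4 (0.0805), or without both libraries numbered 1 (0.0760, a setting added after the values were seen), in the same limma fit with adjusted p from 0.705 to 0.889.

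Ezh1 encodes the paralogous methyltransferase, better known from resting cells. It lies on chromosome 11 from 101191115 to 101226463. It was listed at 3.00 FPKM in PND4 replicate 3 and at 0 in the other 3 PND4 libraries, against 0.317 and 0.146 FPKM in PND1 replicates 3 and 4 and 0 in replicates 1 and 2. The single value above 1 FPKM came from the library with the highest oocyte marker sum, 325 FPKM beside 51.5 to 81.7 in the other PND4 libraries. The part of oocytes in that value was not tested, and a value of exactly 0 may be an estimate that failed. Ezh2 stood above Ezh1 in 8 of 8 libraries. The log2 ratio of Ezh2 to Ezh1, each with 1 FPKM added, was 2.24 to 4.81 at PND4 and 3.48 to 3.88 at PND1.

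Suz12 and Eed encode the scaffold and the mark-reading subunit without which PRC2 loses activity. Suz12 (chromosome 11, 79993106 to 80034123) had 16.6, 32.4, 15.9 and 29.0 FPKM in PND4 libraries, against 20.5, 12.4, 34.9 and 26.6 FPKM in PND1 libraries. High and low libraries occurred at both ages, and the ranges nearly coincided. Its log2 difference was 0.015 (95% interval -0.69 to 0.72, limma adjusted p = 0.994), and the sign turned to -0.060 with median-of-ratios scaling. Eed (chromosome 7, 89954654 to 89980983) had 7.30, 15.4, 6.84 and 11.7 FPKM in PND4 libraries, against 7.55, 8.43, 8.51 and 8.76 FPKM in PND1 libraries. PND4 replicates 2 and 4 lay above every PND1 library and replicates 1 and 3 below every one. The SD of Eed was 4.06 FPKM at PND4 and 0.526 at PND1, and its log2 difference was 0.22 (95% interval -0.38 to 0.81, limma adjusted p = 0.899). That difference was 0.013 without PND4 replicate 2 and 0.14 without PND4 replicate 4, against 0.37 without PND4 replicate 3 and 0.34 without PND4 replicate 1. In both genes PND4 replicates 2 and 4 were the high libraries of their age.

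Rbbp7 encodes a histone-binding protein that PRC2 shares with histone deacetylase and chromatin assembly complexes. It lies on the X chromosome from 162760402 to 162779092. Rbbp7 had 134, 151, 126 and 125 FPKM in PND4 libraries, against 109, 126, 123 and 107 FPKM in PND1 libraries. The ages met at a narrow overlap, since the lowest PND4 library (125.1 FPKM) lay below the highest PND1 library (125.8 FPKM). The log2 difference of Rbbp7 was 0.21 (SE 0.11, 95% interval -0.035 to 0.45), with a limma p of 0.0867 unadjusted and 0.805 adjusted. With median-of-ratios scaling the difference of Rbbp7 was 0.13 (limma p 0.341 unadjusted, 0.911 adjusted). With upper-quartile scaling it was 0.12 for Rbbp7 (limma p 0.320 unadjusted, 0.904 adjusted). Its paralog Rbbp4 was lower in 8 of 8 libraries, at 67.5 ± 10.5 FPKM at PND4 and 63.4 ± 3.85 at PND1 (SD, n = 4 each).

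Rnf2 encodes RING1B, the catalytic ubiquitin ligase of PRC1, and was the steadiest member. It lies on chromosome 1 from 151458004 to 151500955. Rnf2 had 23.3, 25.0, 25.8 and 24.5 FPKM in PND4 libraries, against 24.3, 23.0, 25.2 and 23.6 FPKM in PND1 libraries. Its log2 difference was 0.035 (95% interval -0.26 to 0.33, limma adjusted p = 0.972) and turned to -0.040 with median-of-ratios scaling. The SD of log2(FPKM + 1) within an age was 0.056, the 12th lowest of the 10756 genes tested. In a comparison added after the values were seen, among 501 genes of like level, from 22.01 to 27.25 FPKM, it ranked 2nd from the lowest, beside a median SD of 0.29. With median-of-ratios scaling it ranked 5th. Suz12, at nearly the same mean level, had an SD of 0.56 and ranked 435th of its own 501. Ring1, the paralogous ligase gene, was low at 4.55, 1.27, 0.999 and 1.39 FPKM in PND4 libraries and 0, 0.814, 2.11 and 3.53 FPKM in PND1 libraries, and Rnf2 was above it in 8 of 8.

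Bmi1 encodes a RING finger partner of RNF2 that restrains the Cdkn2a locus in stem cells of several tissues. It lies on chromosome 2 from 18677018 to 18686629. Bmi1 had 18.6, 23.6, 22.1 and 20.3 FPKM in PND4 libraries, against 8.78, 16.6, 17.6 and 19.7 FPKM in PND1 libraries. PND1 replicate 1 was far below the rest, and PND1 replicate 4 lay above PND4 replicate 1. The means were 21.1 ± 2.17 FPKM at PND4 and 15.7 ± 4.78 at PND1 (SD, n = 4 each), a log2 difference of 0.46 (SE 0.24, 95% interval -0.063 to 0.98). The limma p for Bmi1 was 0.0793 unadjusted and 0.805 adjusted. Without PND1 replicate 1, the library with the most genes listed at 0, the log2 difference was 0.22. Its paralog Pcgf2 was lower in 8 of 8 libraries, at 6.64 ± 2.48 FPKM at PND4 and 7.61 ± 2.81 at PND1. The log2 ratio of Bmi1 to Pcgf2 (1 FPKM added to each) was 1.17 to 2.04 at PND4 and 0.39 to 1.501 at PND1.

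Cbx2 and Cbx8 encode chromodomain proteins that bring PRC1 to methylated histone H3. Both lie on chromosome 11, Cbx2 from 119022962 to 119031270 and Cbx8 from 119036305 to 119040969, with 5034 bases between them. Cbx2 had 4.41, 8.44, 10.2 and 6.98 FPKM in PND4 libraries, against 7.42, 7.84, 7.64 and 6.70 FPKM in PND1 libraries. All PND1 libraries lay inside the PND4 range. Cbx2 averaged 7.498 ± 2.43 FPKM at PND4 and 7.40 ± 0.5002 at PND1 (SD, n = 4 each), with a log2 difference of -0.031 (95% interval -0.62 to 0.56, limma adjusted p = 0.987). The sign turned to 0.17 without PND4 replicate 1. Its high library, PND4 replicate 3, was the one with the highest oocyte marker sum, and its low one, PND4 replicate 1, listed 1097 genes at 0. The part of either in the Cbx2 values was not tested. Cbx8 had 4.08, 0.784, 1.42 and 1.30 FPKM in PND4 libraries, against 0.550, 3.86, 2.19 and 2.15 FPKM in PND1 libraries. Both ages ran from under 1 to about 4 FPKM, and the log2 difference was -0.15 (95% interval -1.21 to 0.92, limma adjusted p = 0.970). The neighbours went in different directions in PND4 replicate 1, where Cbx8 was at its highest and Cbx2 at its lowest. Their log2 ratio (1 FPKM added to each) was 0.092 there, beside 1.80 to 2.40 in the other PND4 libraries and 0.86 to 2.44 in PND1 libraries.

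**Figure D2:**
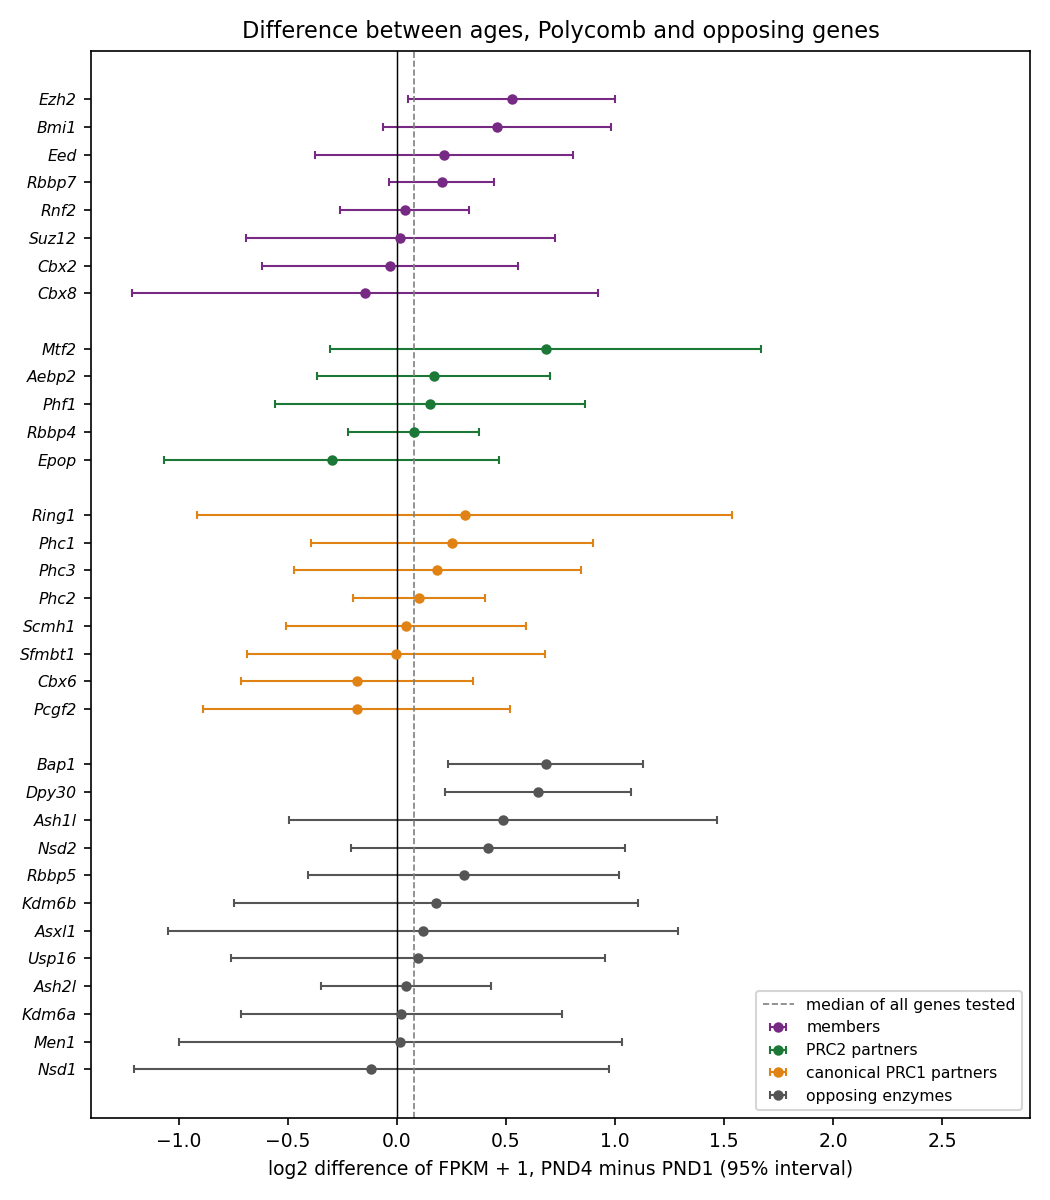
Log2 difference of FPKM + 1, PND4 minus PND1 (points) with 95% intervals from limma (lines), for the 8 tested members and for partner and opposing genes (1 canonical PRC1 partner not drawn); the dashed line is the median of all genes tested, 0.078. Of the members, Ezh2 alone has an interval clear of 0 with all 8 libraries and the deposited scaling (0.053 to 1.00), and none passed the adjusted test; Bap1 and Dpy30 lie highest among the opposing enzymes.

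Partners of both complexes were taken from lists by role. Of 7 PRC2 partners in the list, Jarid2 and Phf19 had no row. Of 5 tested PRC2 partners 0 passed, with 4 above 0, beside 60.3% of all genes. Their median log2 difference was 0.15 beside 0.078 for all genes (0.045 without PND1 replicate 1 and 0.057 without PND4 replicate 2). Among them Mtf2, which helps PRC2 bind CpG islands, stood at 5.33 ± 0.871 FPKM at PND4 and 3.63 ± 3.01 at PND1. Epop, a PRC2 cofactor gene, stood at 5.85 ± 1.67 and 7.86 ± 3.74 FPKM at PND4 and PND1, and Aebp2 at 10.5 ± 2.52 and 9.22 ± 2.14 FPKM (SD, n = 4 each). Of 11 canonical PRC1 partners in the list, Cbx7 and Scml2 had no row. Of 9 tested canonical PRC1 partners 0 passed, with 6 above 0, beside 60.3% of all genes. Their median was 0.10, which turned to -0.042 without PND1 replicate 1 and was 0.012 with array weights. The polyhomeotic gene Phc2, whose product lets PRC1 form larger assemblies, was the most abundant at 58.2 ± 6.99 FPKM at PND4 and 54.2 ± 6.37 at PND1. Its relative Phc1 stood at 6.33 ± 1.498 and 5.19 ± 1.56 FPKM, and Cbx6 at 19.0 ± 5.50 and 21.4 ± 4.97 FPKM at PND4 and PND1.

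Variant PRC1 lacks the Polycomb CBX subunits and recruits other factors, many of them shared with other complexes. Of 25 partners in its list, Bcor, Bcorl1 and Auts2 had no row, and Mga did not reach the filter. Of the 21 tested partners 0 passed, with 16 above 0, beside 60.3% of all genes. Their median was 0.12 (0.035 without PND4 replicate 2 and 0.19 without PND4 replicate 1), beside 0.078 for all genes. Wdr5, a scaffold gene shared with histone H3 lysine 4 methyltransferases, had 32.7, 32.7, 35.9 and 32.4 FPKM in PND4 libraries, against 25.3, 26.3, 27.1 and 24.8 FPKM in PND1 libraries. The ages did not overlap for Wdr5 (log2 difference 0.36, limma adjusted p = 0.763, unadjusted 0.0170). Cbx3, whose product binds histone H3 methylated at lysine 9, had 60.5, 65.8, 61.1 and 56.0 FPKM in PND4 libraries, against 25.6, 52.5, 54.1 and 44.1 FPKM in PND1 libraries. Cbx3 did not overlap either, and its log2 difference was 0.51 (limma adjusted p = 0.805, unadjusted 0.0343). These were the 2 of 21 whose ages stood apart, beside 4.24% of all genes. Abundant members of the list were Skp1a at 94.8 ± 19.5 FPKM at PND4 and 85.0 ± 3.19 at PND1, the casein kinase subunit gene Csnk2b at 78.6 ± 6.98 and 89.7 ± 9.71, and the E2F partner gene Tfdp1 at 62.5 ± 12.2 and 55.7 ± 6.78.

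**Figure D3:**
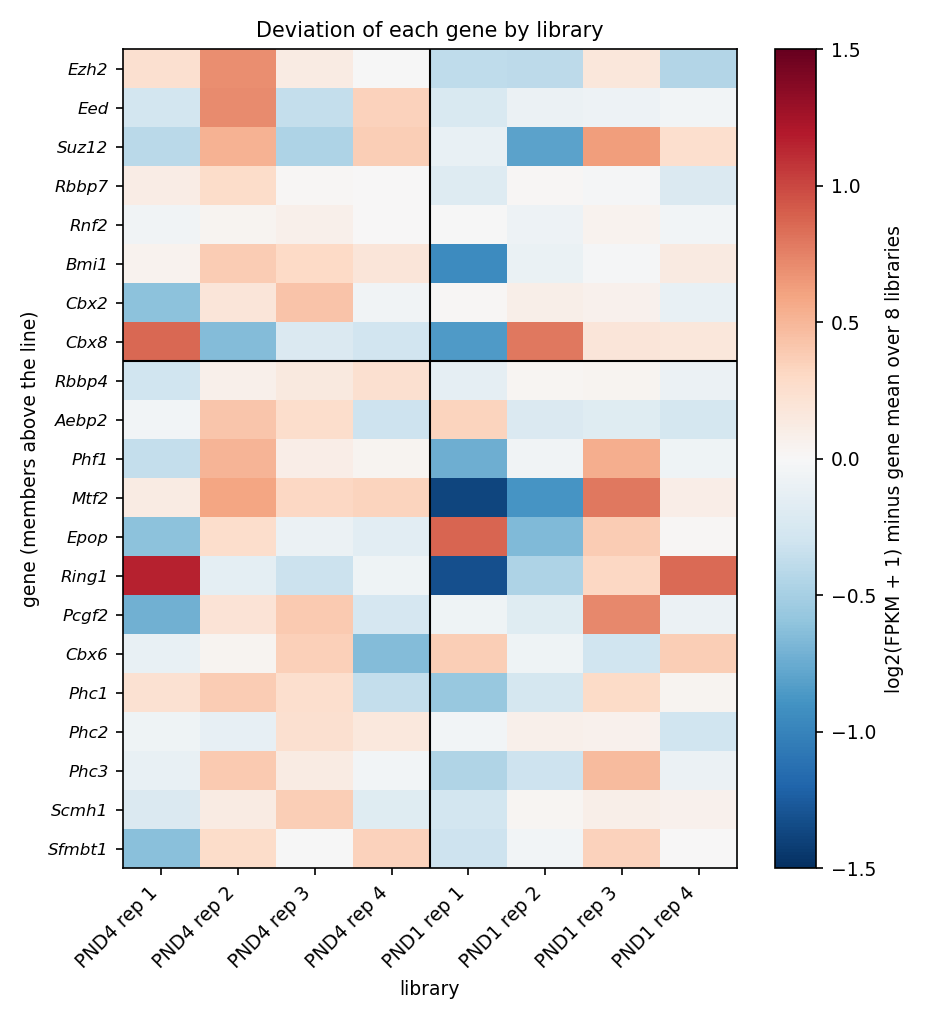
Log2(FPKM + 1) of each gene minus its mean over the 8 libraries (colour), for the tested members above the horizontal line and PRC2 and canonical PRC1 partners below it (1 not drawn); PND4 libraries are left of the vertical line and PND1 libraries right of it. Ezh2, Eed and Suz12 are all high in PND4 replicate 2, Bmi1 is low in PND1 replicate 1, and Rnf2 is nearly white throughout. Neither shift is particular to these members, since Mtf2 and Phf1 are also high in PND4 replicate 2 and low in PND1 replicate 1. Other genes go the other way, as Cbx8 in PND4 replicate 2 and Epop in PND1 replicate 1.

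Enzymes that work against Polycomb were taken as a list of demethylases, deubiquitinases and methyltransferases of active chromatin, with subunits of their complexes. Kmt2a, Kmt2b, Kmt2c and Kmt2d had no row, and Asxl2 and Setd2 did not reach the filter. Of 12 tested 0 passed, while 11 were above 0 on the deposited scaling, beside 60.3% of all genes. Among the 11, Men1 (0.015), Kdm6a (0.019) and Ash2l (0.042) lay below the median of all genes, 0.078. The median of the list was 0.15, and it ran from 0.050 to 0.41 with 1 library left out. It was 0.094 with median-of-ratios and 0.088 with upper-quartile scaling, where that of all genes was 0.0086 and 0.0010. Bap1, the catalytic deubiquitinase gene that removes the PRC1 mark, had 13.6, 17.1, 22.4 and 21.7 FPKM in PND4 libraries, against 11.8, 9.84, 12.1 and 10.6 FPKM in PND1 libraries. Every PND4 library of Bap1 lay above every PND1 library (log2 difference 0.68, 95% interval 0.24 to 1.13, limma adjusted p = 0.740, unadjusted 0.00627). It was the 1 of 12 tested genes whose ages did not overlap, beside 4.24% of all genes (3.16% with PND4 above). Dpy30, a subunit gene of the lysine 4 methyltransferases, had 39.3, 49.2, 43.7 and 35.2 FPKM in PND4 libraries, against 19.1, 26.7, 25.3 and 36.1 FPKM in PND1 libraries. Dpy30 overlapped through PND1 replicate 4 alone (log2 difference 0.65, limma adjusted p = 0.740, unadjusted 0.00653). Bap1 and Dpy30 were the 2 of 12 with an unadjusted limma p under 0.05, beside 5.9% of all genes. Nsd2 stood at 5.43 ± 1.01 and 3.83 ± 0.892 FPKM, and Ash2l at 13.97 ± 0.770 and 13.6 ± 1.78 FPKM, at PND4 and PND1.

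HOX genes, the classical Polycomb targets, were mostly low. Of 39 in the list 11 had a row in the filtered table, all from the B, C and D clusters, and 0 of 11 passed. Their median log2 difference was -0.13, with 4 above 0 and 7 below, and it turned to 0.051 without PND4 replicate 1 and 0.0034 without PND1 replicate 4. A filter of 5 FPKM dropped the lower genes of the list. The median of those left was 0.21, the value of Hoxc8, so it is not a median of the same genes. Hoxc8 was the most abundant at 18.2 ± 2.58 FPKM at PND4 and 16.6 ± 6.52 at PND1. Hoxd9 stood at 6.10 ± 2.07 and 6.17 ± 2.24 FPKM, Hoxd8 at 5.53 ± 1.89 and 6.08 ± 1.74, Hoxd10 at 2.25 ± 1.31 and 3.41 ± 1.78, and Hoxc10 at 2.18 ± 1.12 and 2.99 ± 0.935 FPKM at PND4 and PND1.

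Genes of gonad fate and the Cdkn2 cell-cycle inhibitors were listed as possible readers of Polycomb activity in this tissue. Of 26 in the list 21 had a row, and Cdkn2a, Sry, Dmrt1, Esr2 and Nr0b1 had none. Of 19 tested 0 passed, with 9 above 0 and 10 below, and a median of -0.089, which turned to 0.057 without PND1 replicate 3 and was -0.20 without PND1 replicate 2. Wnt4, an ovary-promoting ligand gene, had 17.9, 15.7, 14.5 and 12.1 FPKM in PND4 libraries, against 22.8, 23.5, 18.0 and 23.7 FPKM in PND1 libraries. The ages came within 0.1 FPKM of each other without overlapping (log2 difference -0.52, limma adjusted p = 0.743, unadjusted 0.0143). Fgf9, a growth factor gene that promotes testis fate, stood at 1.98 ± 0.546 FPKM at PND4 and 4.39 ± 0.854 at PND1, again without overlap (log2 difference -0.86, limma adjusted p = 0.788, unadjusted 0.0199). Ptgds, looked at afterwards, had the highest log2 difference of the list, 1.77 (limma adjusted p = 0.805, unadjusted 0.0458), with 3 PND1 libraries and 1 PND4 library at 0. An unadjusted limma p under 0.05 was had by 2 genes higher and 3 lower of 19, beside 4.06% and 1.84% of all genes. Cdkn2b had the most negative log2 difference of the list, -1.63, with 0.929 to 16.4 FPKM at PND4 and 17.9 to 28.6 FPKM at PND1 (limma adjusted p = 0.740, unadjusted 0.0122). Cdkn2c and Cdkn2d, looked at afterwards, had log2 differences in the other direction, 0.84 and 0.75 (limma adjusted p = 0.812 and 0.868). Rspo1, chosen after its values were seen, was the remaining gene of the 4 of 19 whose ages did not overlap (1 with PND4 above and 3 with PND4 below, beside 3.16% and 1.08% of all genes), at 9.35 ± 2.89 FPKM at PND4 and 5.86 ± 0.643 at PND1. The gonadal transcription factor genes Gata4 (64.4 ± 20.7 and 71.0 ± 31.0 FPKM), Wt1 (33.6 ± 16.8 and 30.9 ± 7.76) and Gata6 (18.5 ± 1.93 and 20.2 ± 3.48) overlapped widely between PND4 and PND1. The filter left 2 genes of the list untested, Lef1 and Amh, whose values were looked at afterwards. Amh, the anti-Müllerian hormone gene of growing follicles, was listed at 0, 7.87, 4.04 and 1.81 FPKM in PND4 libraries, against 0 in 3 PND1 libraries and 0.239 FPKM in PND1 replicate 4. Lef1, a WNT pathway transcription factor gene, was listed at 0 in all 4 PND4 libraries, against 0, 2.67, 5.10 and 0.0116 FPKM in PND1 libraries.

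Proliferation genes were set beside the members because Ezh2 is known to follow the cell cycle. Of 29 tested 0 passed, with 23 above 0, beside 60.3% of all genes, and a median of 0.16 (0.078 for all genes). Without PND1 replicate 1 that median was 0.016, and without both libraries numbered 1 it was -0.050. The list summed to 1312 to 1480 FPKM at PND4, against 962 FPKM in PND1 replicate 1 and 1326 to 1368 in the other PND1 libraries. Rrm1, for a ribonucleotide reductase subunit, stood at 138 ± 11.8 FPKM at PND4 and 117 ± 19.3 at PND1. Aurkb, a mitotic kinase gene, stood at 20.8 ± 5.43 and 14.02 ± 8.10 FPKM at PND4 and PND1. The mitotic cyclin gene Ccnb2 had 13.0, 14.8, 7.63 and 12.8 FPKM in PND4 libraries, against 0, 9.35, 6.10 and 18.5 FPKM in PND1 libraries. The most abundant of the list included the replication genes, with Pcna at 227 ± 29.0 and 212 ± 8.56 FPKM and Mcm6 at 88.2 ± 14.4 and 79.0 ± 4.05 FPKM at PND4 and PND1.

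**Figure D4:**
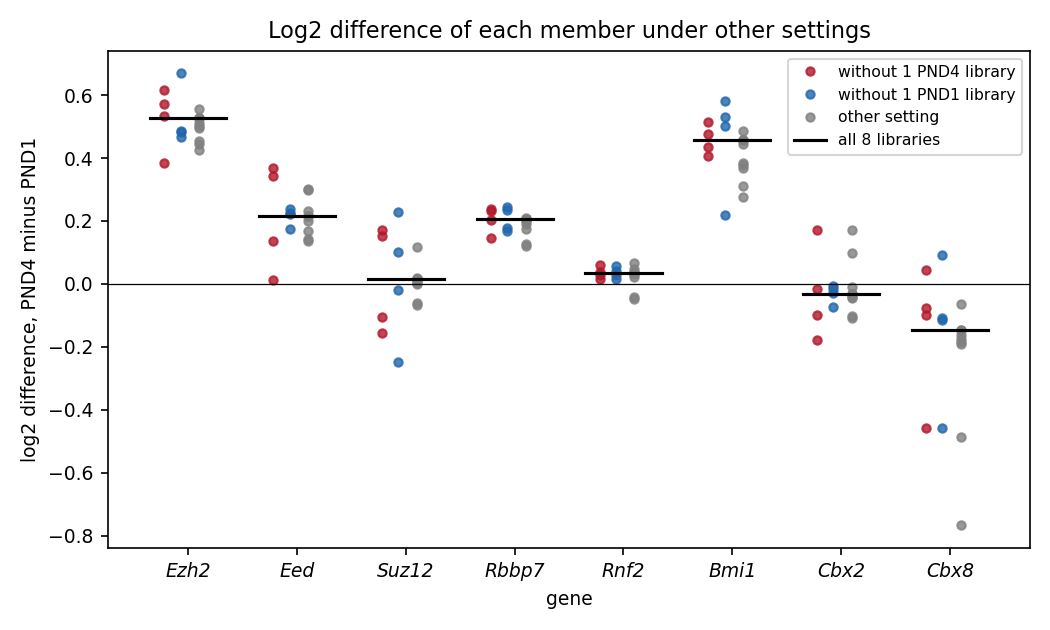
Log2 difference, PND4 minus PND1, of each tested member (black bar: all 8 libraries) with 1 PND4 library left out (red), 1 PND1 library left out (blue) or under another setting (grey). Ezh2, Bmi1, Rbbp7 and Eed stay above 0 in every setting run, while Suz12, Rnf2, Cbx2 and Cbx8 take both signs.

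Likeness over the 8 libraries was taken among 6692 genes with a mean of at least 5 FPKM. By Pearson r of log2 values, the genes most like Ezh2 were Nop58 (0.913), Slc7a5 (0.909) and Cttn (0.904). For Cbx2 they were Psmb10 (0.965), B4galt3 (0.964) and Met (0.958). Spearman rho reversed both orders, at 0.690, 0.833 and 0.929 for Ezh2 and 0.810, 0.833 and 0.881 for Cbx2. The Pearson values are the highest of 6692 coefficients each over 8 libraries and are a description, with no test. The directions of the members were the same in the authors' deposited table for Ezh2, Eed, Rbbp7, Rnf2, Bmi1, Cbx2 and Cbx8, and opposite for Suz12, with a fold of PND1 over PND4 of 1.09. The authors' deposited table gave 0 of 11783 genes a q under 0.05, and its smallest member q was 0.742, for Ezh2 and Rbbp7.

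Exonic sequence of some members is shared with genes on the opposite strand in GENCODE M21. Rbbp7 shares 174 bases with Txlng, Rnf2 158 bases with Trmt1l and Suz12 178 bases with the noncoding Gm26563. Ezh2 shares 174 bases with Gm26625, and Eed 261 with E230029C05Rik. No source used here states the strand setting, which leaves reads in those stretches uncertain. Trmt1l stood at 7.39 ± 2.901 FPKM at PND4 and 6.41 ± 1.31 at PND1, below Rnf2.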

How the data were processed

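RNA-seq of 8 libraries was analysed from the authors' deposited table of FPKM values, 11783 rows. Neither the program behind the FPKM nor the rule that filtered the rows is given in the sources used here. Per the submitters' processing notes, the tools were Trim Galore and HISAT2, and the build GRCm38. The deposited comparison holds a fold (a ratio that the values show to be PND1 over PND4), log2 of that fold, and p-values with q-values, by a test that no source used here names.

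Values were tested as log2(FPKM + 1), a scale that understates changes of low genes, for the 10756 genes that reached 1 FPKM in 4 or more libraries. The test was limma 3.58.1 (R 4.3.3) with an intensity trend, PND4 minus PND1 with no block, and Benjamini-Hochberg adjustment over all genes. It was tested on simulated data. Low values did not clearly fall on multiples of 1 read, so depth is unknown. At the best of many steps tried, 25.1% to 26.2% lay within 0.1 of a multiple. Chance gives 20% at 1 fixed step, and its share at the best step was not computed. The median 95% interval of a log2 difference reached 0.65 to either side.

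The members and lists were chosen with earlier results of these data known. List genes named had the 3 smallest unadjusted p or the 3 highest means of their list. In all, 1 canonical PRC1 partner is not reported here, though it stays in its list's counts. Likeness was taken over genes with a mean of at least 5 FPKM, predicted loci and pseudogenes left out. Stroma markers summed to 218 to 282 FPKM at PND4 and 200 to 232 at PND1, erythroid markers to 0.268 to 11.4 and 17.1 to 48.9, surface epithelium markers to 212 to 477 and 122 to 380, and granulosa markers to 1047 to 1272 and 964 to 1301. Most of the granulosa sum came from the keratin genes Krt18 and Krt8, with means of 493 and 373 FPKM over the 8 libraries. The 1 endothelial marker with a row ranged over 0.961 to 6.96 FPKM at PND4 and 1.10 to 9.05 at PND1. Positions are from GENCODE M21 (11770 of 11783 identifiers matched). Alternatives were pseudocounts of 0.1 and 5, no filter or 5 FPKM, other scalings, array weights, a replicate block and each library left out. Figures used matplotlib 3.10.9.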

Additional observations from a re-analysis of the deposited data

Results flagged for a closer look

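Each member was searched in each age for 1 library far from the other 3 by Dixon's ratio of gap to range, 18 groups in all, of which chance flags about 1 in 20. Ezh1 was flagged in PND4 replicate 3, at 3.00 FPKM beside 0 in the other 3 PND4 libraries. With 3 values tied at 0 any positive value in the other is flagged, so that flag says nothing further. Ezh2 was flagged in PND1 replicate 3, at 18.4 FPKM beside 11.8 to 12.3 FPKM in the other PND1 libraries. Both libraries had the highest oocyte marker sum of their age, 325 FPKM at PND4 and 134 FPKM at PND1, and the part of oocytes in these values was not tested.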

How the results depend on the processing

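No member was called under any of the 18 alternatives run. The count of genes called over the whole table was 1, and 0 to 1 with 1 library left out (0 without any single PND1 library). It was 2 with array weights and 0 with both libraries numbered 1 left out, an alternative chosen after seeing the data. Ezh2, Eed, Rbbp7 and Bmi1 kept a log2 difference above 0 in every alternative. Those of Suz12 and Rnf2 turned to -0.060 and -0.040 with median-of-ratios scaling and to -0.068 and -0.049 with upper-quartile scaling, which brought the median of all genes to 0.0086 and 0.0010. Cbx2 turned to 0.099 with array weights and 0.17 with both libraries numbered 1 left out, where Cbx8 was -0.49 and -0.77. With 1 library left out, Suz12 ran from -0.25 to 0.23, Cbx2 from -0.18 to 0.17 and Cbx8 from -0.46 to 0.093. The cause of these turns was not tested. Cbx8 fell below the filter of 5 FPKM, so that setting gave no value for it.

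Replicate numbers showed no clear pairing of the libraries, though the check cannot exclude shared litters or runs. Deviations from the age means of same-numbered libraries correlated across genes at 0.046, -0.0088, 0.032 and 0.12, and 1 of 4 PND1 libraries correlated best with its own number. With the replicate number as a block the count of genes called was 1 and that of members 0. Depth is unknown, and intervals of the members' log2 differences reached 0.24 (Rbbp7) to 1.07 (Cbx8) to either side.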
